A study of Homo sapiens with 12 samples.

Results

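The HOX genes encode homeodomain transcription factors and sit in the human genome in clusters on separate chromosomes. In each cluster the genes lie in the order of their paralog groups, from those active first and nearest the head of the embryo (the low numbers) to those active last and nearest the tail (the high numbers). In blood, HOXA and HOXB genes are active in stem and progenitor cells and are shut off as cells mature, and their proteins bind DNA together with the TALE homeodomain proteins of the PBX and MEIS families. HOXA9 and MEIS1 together drive acute myeloid leukemia when overexpressed, and forced HOXB4 expands hematopoietic stem cells.

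The genes described here were the rows of the deposited expression tables whose symbol was on a list of HOX cluster genes, 38 of 56266 genes in all. The list held 10 HOXA genes (chromosome 7, 27139973 to 27239710, minus strand, GRCh37), 10 HOXB genes (chromosome 17, 46605888 to 46806112, minus strand), 9 HOXC genes (chromosome 12, 54332615 to 54449814, plus strand) and 9 HOXD genes (chromosome 2, 176957449 to 177055635, plus strand).

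The data were RNA-Seq libraries from H1, an established human embryonic stem cell (hESC) line, and from H1-GATA2-/-, which is 1 clone of H1 with a PGK-driven neomycin cassette in exon 3 of both GATA2 alleles. Undifferentiated H1-GATA2-/- hESCs were sequenced, as were hemogenic endothelial cells (HEs, CD34+CD31+CD43- cells, the endothelium from which blood arises) sorted at day 8 of co-culture with mouse OP9 stroma from wild-type (WT) H1 and from H1-GATA2-/-. Hematopoietic progenitor cells (HPCs, CD34+CD43+ cells) of both genotypes were sorted at day 9. Each of these 5 groups had 2 libraries, and nothing in the labels says whether the 2 came from separate cultures, so p-values measure only the spread between them. The 2 WT hESC samples were not analysed here, so the comparisons with hESCs hold for the H1-GATA2-/- line only.

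Levels are given as TPM, the authors' length-scaled abundance of a gene's transcripts, which scales every library to the same total. How many reads lay behind a value is not known from TPM, and intervals for counting error cannot be computed. A value of 0 means only that the gene was listed at 0.

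Most markers followed the labels of the libraries. POU5F1, a pluripotency factor, had a TPM of 3332 and 2855 in the hESC libraries and at most 3.02 in every other library. CDH5, which encodes VE-cadherin, had a TPM of 514.2 to 613.6 in HEs and 53.91 to 137.2 in HPCs. SPN, which encodes the CD43 used in the sort, had a TPM of 97.98 to 107.9 in HPCs and 1.76 to 8.81 in HEs. PTPRC, the common leukocyte antigen CD45, was at 0 in all 4 HE libraries and at 0.68 to 3.09 in HPCs, and did not separate these from hESCs (0.56 and 3.06). GATA2 itself did not separate the genotypes of the HE libraries. WT HEs had a GATA2 TPM of 106.8 and 78.03 and HEs labelled GATA2-/- one of 110.9 and 94.06, against 290.1 and 204.2 in WT HPCs and 112.5 and 83.82 in HPCs labelled GATA2-/-. A gene-level value also counts transcripts from a disrupted locus, so it does not check the genotype, and GATA2-/- below means the libraries labelled so.

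The HOX genes were close to silent in hESCs, on in HEs and partly off again in HPCs. Summed over the 38 genes, the TPM was 0 and 0.32 in the 2 hESC libraries. It was 389.6 and 360.0 in WT HEs, 386.7 and 295.1 in GATA2-/- HEs, 146.6 and 95.91 in WT HPCs, and 142.3 and 90.25 in GATA2-/- HPCs. The 3 stages did not overlap. In bulk samples, fewer cells of a type and less RNA per cell cannot be told apart. Nearly all of this RNA came from the HOXB cluster, which made up 92.61% to 93.86% of the summed HOX TPM in the HE libraries and 99.31% to 100% in the HPC libraries. Of the 38 genes, 30 were above 0 in at least 1 HE library and 11 in at least 1 HPC library. Those 11 were 8 HOXB and 3 HOXA genes, and no HOXC or HOXD gene was above 0 in any HPC library. A total of 7 genes (HOXB1, HOXC11, HOXC12, HOXC13, HOXD11, HOXD12 and HOXD13) were at 0 in all 10 libraries. The 2 hESC values above 0 were 0.16 for HOXB3 and 0.16 for HOXD10.

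**Figure D1:**
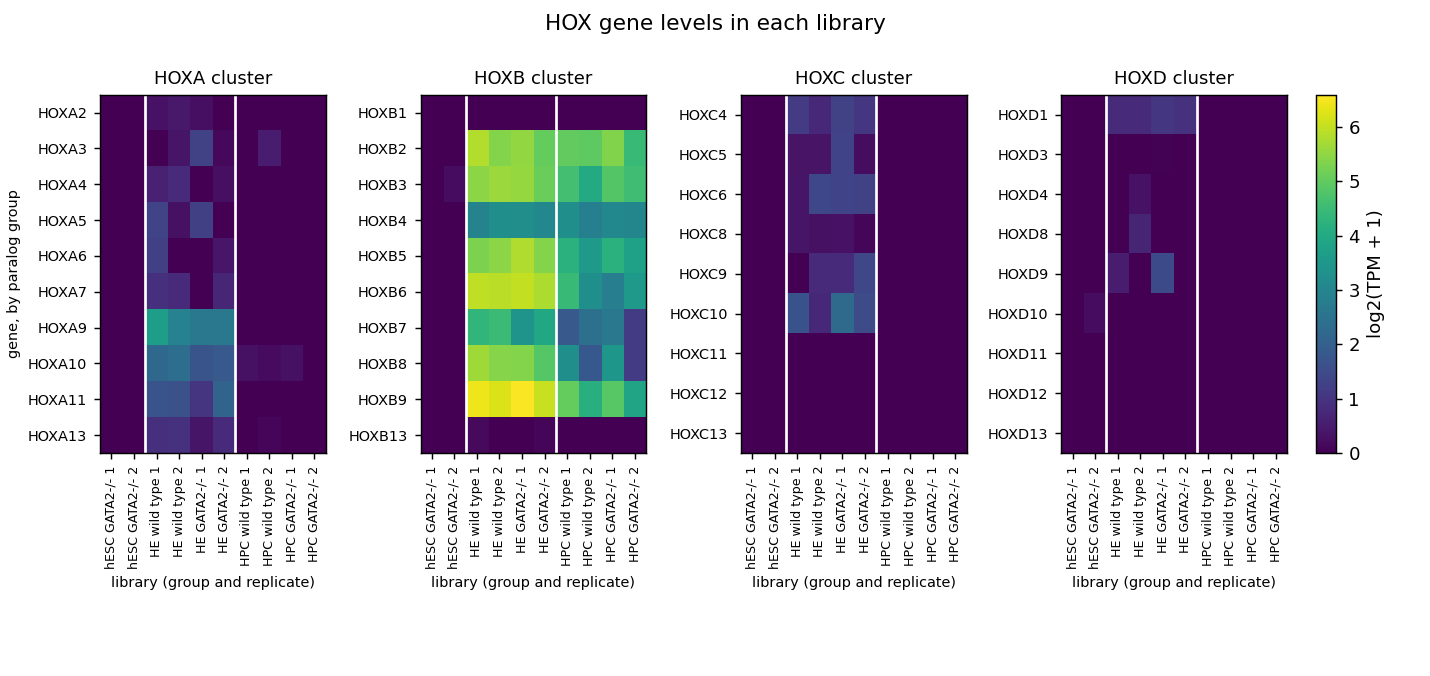
Heat map of the 38 HOX genes (rows, by cluster and paralog group) in the 10 libraries (columns), coloured by log2(TPM + 1). HOXB2 to HOXB9 form the bright block, with summed HOXB TPM of 274.8 to 362.6 in the HE libraries and 90.25 to 146.4 in the HPC libraries, while HOXC and HOXD are at 0 in every HPC library.

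For the tests, limma was fitted to log2(TPM + 1) of all 10 libraries with Benjamini-Hochberg adjustment over the 21543 genes that reached a TPM of 1 in 2 or more libraries. Log2 differences below are on this scale, which understates the change of low genes. Only 15 of the 38 HOX genes passed that filter (HOXA5, HOXA9, HOXA10, HOXA11, HOXB2 to HOXB9, HOXC4, HOXC6 and HOXC10). The other 23 were not tested, and their highest TPM in any library was 1.77. The 8 genes HOXB2 to HOXB9 reached a TPM of 1 in all 4 HE and all 4 HPC libraries. The other 7 reached it in HE libraries only, so they entered the test through the group where they were high, and their differences from HEs are given as descriptions. No member reached it in an hESC library, so the same holds for every member in the comparisons with hESCs.

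HOXB2 to HOXB9 were the members with substantial expression, and their levels differed among themselves. HOXB2 and HOXB3, best known for patterning the hindbrain, had a mean TPM over the 4 HE libraries of 43.54 ± 10.15 (SD) and 42.6 ± 6.2. HOXB4, the gene used to expand blood stem cells, was the lowest at 7.87 ± 0.93. HOXB5, which marks long-term stem cells in mouse bone marrow, was at 44.36 ± 7.75, HOXB6 at 59.52 ± 4.05 and HOXB7 at 16.26 ± 5.45. HOXB8, whose forced expression blocks the maturation of myeloid progenitors, was at 39.86 ± 8.83, and HOXB9 was the highest at 79.98 ± 12.63. Ordered by level in HEs, HOXB4 (6.73 to 8.74), HOXB7 (9.63 to 21.77) and HOXB8 (28.02 to 49.41) did not overlap with each other. HOXB8, HOXB3, HOXB2 and HOXB5 overlapped and cannot be ordered, and HOXB2 (up to 56.46) and HOXB5 (up to 55.72) also overlapped with HOXB6 (53.83 to 63.19). HOXB9 (64.9 to 93.95) lay above all of them.

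HOXB1, the first gene of the cluster, was at 0 throughout, and HOXB13, the most distant gene of the cluster (chromosome 17, 46802125 to 46806112), reached 0.13 at most.

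The comparison of GATA2-/- HEs with GATA2-/- hESCs asked which members were switched on. HOXB9 (ENSG00000170689, chromosome 17, 46698518 to 46703720) was at 0 in both hESC libraries and at 93.95 and 64.9 in GATA2-/- HEs. The log2 difference was 6.31. HOXB6 (ENSG00000108511) went from 0 in both to 63.19 and 53.83, a log2 difference of 5.89. HOXB4 (ENSG00000182742, chromosome 17, 46652869 to 46655712) went from 0 in both to 8.51 and 7.49, a log2 difference of 3.17. Limma called 14 of the 15 tested members higher, all but HOXA5, beside 13.9% of all tested genes. Since every member entered through the HE or HPC libraries, only a rise was possible, and nothing is read from this count. In GATA2-/- HPCs against the same hESC libraries, the 8 genes HOXB2 to HOXB9 were called higher, beside 14.2% of all tested genes, a count that follows from the filter in the same way. HOXB2 had the largest log2 difference there (4.89). Those of HOXB7 (1.91) and HOXB8 (2.32) rested on 1 library, since both were 1.16 without replicate 1 of GATA2-/- HPCs. These comparisons share their hESC libraries and are not independent.

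**Figure D2:**
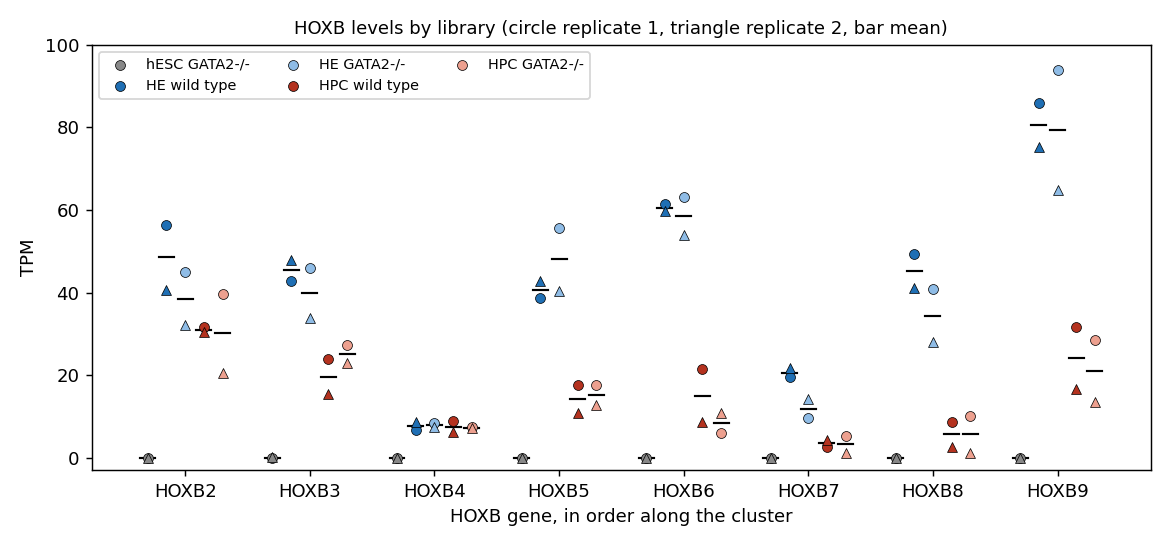
TPM of HOXB2 to HOXB9 (horizontal axis, in order along the cluster) in each library, with circles for replicate 1, triangles for replicate 2 and bars for the mean of the 2 libraries of a group. HOXB9 is at 64.9 to 93.95 in HEs and 13.42 to 31.74 in HPCs, whereas HOXB4 is at 6.73 to 8.74 in HEs and 6.26 to 8.83 in HPCs.

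From HEs to HPCs the HOXB genes fell unequally, with HOXB4 nearly level and the HOXB5 to HOXB9 end of the cluster falling most. HOXB4 was at 6.73 and 8.74 in WT HEs and 8.51 and 7.49 in GATA2-/- HEs. It was at 8.83 and 6.26 in WT HPCs and 7.42 and 7.19 in GATA2-/- HPCs, so the stages overlapped. Its log2 difference over both genotypes was -0.08 (SE 0.22, 95% interval -0.57 to 0.42, adjusted p = 0.862 from limma). HOXB2 (ENSG00000173917, chromosome 17, 46618256 to 46622471) was at 56.46 and 40.68 in WT HEs and 44.97 and 32.06 in GATA2-/- HEs. In HPCs it was at 31.56 and 30.42 in WT and 39.71 and 20.65 in GATA2-/- cells, which overlapped with the HEs. Its log2 difference was -0.50 (SE 0.23), with an adjusted p of 0.172 from limma. HOXB3 (ENSG00000120093) was at 42.83 and 47.87 in WT HEs and 45.87 and 33.84 in GATA2-/- HEs, against 23.84 and 15.46 in WT HPCs and 27.27 and 22.98 in GATA2-/- HPCs. Its stages did not overlap, and it fell by 0.91 on the log2 scale (SE 0.19, adjusted p = 0.0103 from limma), a call that was lost with a pseudocount of 0.1 (adjusted p = 0.0762).

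Of the members tested in both stages, HOXB5 to HOXB9 were, like HOXB3, lower in all 4 HPC libraries than in any HE library. How many of all tested genes did the same was not counted, so nothing particular to HOXB is read from this. HOXB5 (ENSG00000120075) was at 38.65 and 42.68 in WT HEs, 55.72 and 40.37 in GATA2-/- HEs, 17.64 and 10.83 in WT HPCs and 17.67 and 12.77 in GATA2-/- HPCs. It fell by 1.54 on the log2 scale (SE 0.21). HOXB6 was at 61.36 and 59.69 in WT HEs, 63.19 and 53.83 in GATA2-/- HEs, 21.38 and 8.77 in WT HPCs and 6.07 and 10.78 in GATA2-/- HPCs, a fall of 2.38 (SE 0.28). Part of its reads could belong to other genes, since 16.6% of its exonic bases are shared with HOXB3 on the same strand and 16.3% with HOXB-AS3 on the other. HOXB7 (ENSG00000120087) was at 19.48 and 21.77 in WT HEs, 9.63 and 14.17 in GATA2-/- HEs, 2.6 and 4.41 in WT HPCs and 5.29 and 1.23 in GATA2-/- HPCs. Its log2 difference was -2.03 (SE 0.35). HOXB8 (ENSG00000120068, chromosome 17, 46688739 to 46692654) was at 49.41 and 41.2 in WT HEs, 40.79 and 28.02 in GATA2-/- HEs, 8.79 and 2.52 in WT HPCs and 10.2 and 1.23 in GATA2-/- HPCs. It had the largest log2 difference of the cluster, -2.89 (SE 0.51), and also the largest standard error. HOXB9 was at 85.8 and 75.28 in WT HEs, 93.95 and 64.9 in GATA2-/- HEs, 31.74 and 16.58 in WT HPCs and 28.46 and 13.42 in GATA2-/- HPCs, a log2 difference of -1.85 (SE 0.28). The adjusted p-values of these 5 genes from limma ran from 0.000462 for HOXB6 to 0.00391 for HOXB8.

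As a share of the HE mean over both genotypes, the HPC mean TPM was 70.2% for HOXB2, 52.5% for HOXB3 and 94.4% for HOXB4. It was 33.2% for HOXB5, 19.7% for HOXB6, 20.8% for HOXB7, 14.3% for HOXB8 and 28.2% for HOXB9. The order of the levels changed accordingly. In HPCs HOXB2 had the highest mean (30.58 ± 7.81), followed by HOXB9 (22.55 ± 8.91) and HOXB3 (22.39 ± 4.98), whose ranges all overlapped. HOXB4 (7.42 ± 1.06) had the lowest mean in HEs but not in HPCs, where HOXB8 (5.68 ± 4.47) and HOXB7 (3.38 ± 1.82) had lower means, and HOXB7 (1.23 to 5.29) did not overlap with HOXB4 (6.26 to 8.83). HOXB4 contributed 1.73% to 2.54% of the summed HOX TPM in HEs and 5.21% to 7.97% in HPCs.

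Whether members differed in the size of their fall was tested on the log2 ratio of each pair of HOXB genes within a library, from log2(TPM + 1), with 4 HE against 4 HPC libraries. These tests were chosen after the values had been seen, so they describe the falls given above and add no separate support. No share over pairs of other genes is given, so nothing particular to HOXB is read from the counts. The log2 ratio of HOXB2 to HOXB8 was 0.12 ± 0.10 (SD) in HEs and 2.51 ± 0.82 in HPCs. That of HOXB4 to HOXB8 was -2.18 ± 0.39 in HEs and 0.63 ± 1.03 in HPCs. The ratio of HOXB3 to HOXB4 fell from 2.29 ± 0.19 to 1.45 ± 0.25, without overlap between stages. In contrast, the ratio of HOXB2 to HOXB4 (2.31 ± 0.41 and 1.88 ± 0.39, exact permutation p = 0.257) and that of HOXB5 to HOXB9 (-0.84 ± 0.20 and -0.53 ± 0.32, exact permutation p = 0.143) overlapped between stages. Of the 28 pairs, 17 did not overlap, each with a two-sided exact permutation p of 0.0286, the smallest that 4 against 4 libraries can give. Their adjusted p over the 28 pairs was 0.0471. Over the 7 pairs of neighbouring genes alone, 3 did not overlap and the smallest adjusted p was 0.0667 (exact permutation test), so whether any pair passes depends on which pairs are counted together. The pairs also share genes and are not independent.

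**Figure D3:**
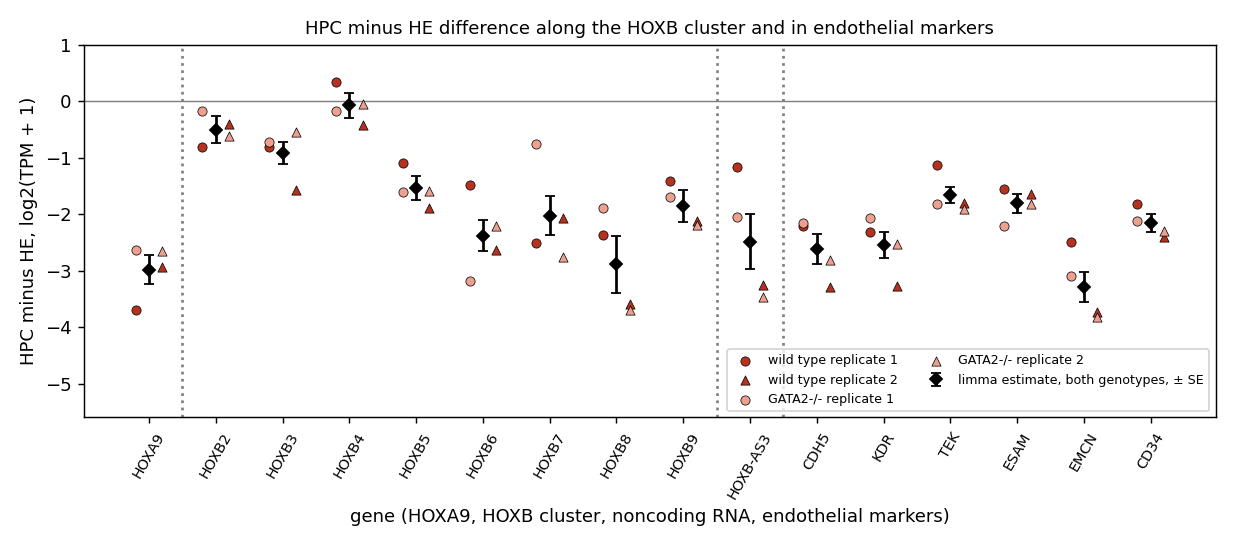
HPC minus HE difference in log2(TPM + 1) for HOXA9, the HOXB genes in order, the noncoding HOXB-AS3 and 6 endothelial markers. Diamonds with bars are the limma estimate over both genotypes ± SE, and points are the difference between libraries of the same genotype and replicate number. HOXB4 lies at -0.08 and HOXB8 at -2.89, and the endothelial markers lie in the range of HOXB5 to HOXB9 or lower.

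The HOXA genes were low in HEs and at or near 0 in HPCs. HOXA9 (ENSG00000078399, chromosome 7, 27202057 to 27214799) was the highest of them, with a TPM of 12 and 6.64 in WT HEs and 5.22 and 5.3 in GATA2-/- HEs. It was at 0 in both hESC and all 4 HPC libraries. The log2 difference between HPCs and HEs was -2.98. HOXA10, a regulator of myeloid progenitors, was at 3.73 and 4.21 in WT HEs and 2.29 and 2.61 in GATA2-/- HEs and did not exceed 0.23 in HPCs (log2 difference -1.85). HOXA11, known from limb and kidney development, was between 1.02 and 3.26 in HEs and at 0 in HPCs (log2 difference -1.61). None of the 3 reached a TPM of 1 outside HEs, so no test of their fall is given. HOXA5 was uneven between replicates, at 1.56 and 0.22 in WT HEs and 1.39 and 0 in GATA2-/- HEs, and at 0 in HPCs. The 6 other HOXA genes had a TPM of at most 1.46 in any library. Of the exonic bases of HOXA9, 15.9% are shared with another gene on the same strand and 13.9% with one on the other strand, and 27.2% of those of HOXA11 are shared with HOXA11-AS. The library kit is not stated to keep the strand, so reads of such partners cannot be told apart.

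The sequence upstream of HOXA9, HOXA10 and HOXA11 is shown because these 3 neighbours were above a TPM of 1 in every HE library and at or near 0 in HPCs. The RefSeq promoter table (GRCh38.p14) held an entry for 20 of the 38 members. The 250 bases before each start in that table are written 5' to 3' on the gene's own (minus) strand, at chr7:27165538-27165787 for HOXA9, chr7:27174321-27174570 and chr7:27179862-27180111 for HOXA10, which has 2 entries, and chr7:27185233-27185482 for HOXA11. A gene with several transcripts has several starts, so a window can lie inside the gene's whole annotated span, and which start these cells used was not tested. Capitals mark matches to the motifs searched on both strands.
HOXA9: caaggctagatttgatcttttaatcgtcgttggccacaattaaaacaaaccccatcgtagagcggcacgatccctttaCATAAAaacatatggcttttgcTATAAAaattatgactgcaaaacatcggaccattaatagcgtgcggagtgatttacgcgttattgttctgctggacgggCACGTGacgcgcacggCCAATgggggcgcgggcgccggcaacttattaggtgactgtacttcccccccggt
HOXA10, at 27174321: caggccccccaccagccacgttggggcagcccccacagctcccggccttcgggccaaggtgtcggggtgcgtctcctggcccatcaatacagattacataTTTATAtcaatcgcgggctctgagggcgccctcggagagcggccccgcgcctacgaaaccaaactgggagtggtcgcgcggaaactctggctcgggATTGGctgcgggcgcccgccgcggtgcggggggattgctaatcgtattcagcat
HOXA10, at 27179862: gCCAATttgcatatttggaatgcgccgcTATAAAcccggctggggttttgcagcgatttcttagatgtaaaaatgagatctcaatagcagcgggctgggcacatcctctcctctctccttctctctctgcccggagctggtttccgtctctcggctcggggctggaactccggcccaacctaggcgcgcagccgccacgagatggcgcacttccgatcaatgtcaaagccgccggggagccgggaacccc
HOXA11: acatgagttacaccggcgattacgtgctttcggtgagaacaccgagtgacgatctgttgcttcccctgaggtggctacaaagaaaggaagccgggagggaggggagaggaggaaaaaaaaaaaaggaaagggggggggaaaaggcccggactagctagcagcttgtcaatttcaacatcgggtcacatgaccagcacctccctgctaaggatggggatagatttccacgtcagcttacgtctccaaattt
The letters searched were GATAA for the core of the GATA factor site, TTTATG for CDX factors, AGGTCA for the repeat bound by retinoic acid receptors, TGACAG for MEIS, CCAAT for the box of that name, CACGTG for the E-box and TATAAA for the TATA box. The CDX and TATA letters share a run of bases, so their matches can overlap, but in HOXA9 they were found at separate places. HOXA9 held the CDX letters on the reverse strand, the TATA box, the E-box and the CCAAT box. Both HOXA10 windows held the TATA box and the CCAAT box, on the reverse strand in the window at 27174321 and on the forward strand in that at 27179862. HOXA11 held none of the letters. Of 35116 promoter windows in the table, 20.4% held GATAA, 9.6% TTTATG, 12.1% AGGTCA, 13.0% TGACAG, 32.0% CCAAT, 6.3% CACGTG and 10.7% TATAAA. A match is a description of the letters and not evidence of binding.

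The HOXC and HOXD genes did not exceed a TPM of 3.83 in any library. HOXC10, the highest HOXC gene, was at 2.16 and 0.69 in WT HEs and 3.83 and 1.91 in GATA2-/- HEs. HOXC4 and HOXC6 reached 1.41 and 1.70. All 3 were at 0 in both hESC and all 4 HPC libraries, with log2 differences between HPCs and HEs of -1.56, -1.05 and -1.11 for HOXC10, HOXC4 and HOXC6, which as for the HOXA genes are descriptions. No HOXD gene passed the filter. HOXD1 was the only one above 0 in all 4 HE libraries, at 0.73 and 0.73 in WT and 1.08 and 0.92 in GATA2-/- HEs, and HOXD9 reached 1.77 in 1 library of GATA2-/- HEs and was at 0 in the other.

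Of the 8 members that reached a TPM of 1 in both stages, 6 were lower in HPCs than in HEs over both genotypes (HOXB3 and HOXB5 to HOXB9) and none was higher, beside 11.9% of all tested genes called lower. Within WT cells 6 of the 8 were lower, beside 6.59% of all tested genes, and within GATA2-/- cells 5 were, beside 7.24%. These shares also cover genes below a TPM of 1 in HEs or HPCs, unlike the 8. A share over genes that reached it in all HE and HPC libraries was not computed. Of the 7 members that reached a TPM of 1 in HEs alone, limma called 6, 3 and 5 lower in the same comparisons, for totals of 12, 9 and 10, but these could only fall and nothing is read from their calls. HOXB3 was called in WT (log2 difference -1.19, SE 0.27) and not in GATA2-/- cells (-0.63, SE 0.27), but the difference between genotypes was not significant (0.56, SE 0.39, adjusted p = 0.900 from limma). With a block for replicate number, HOXB7 was no longer called within GATA2-/- cells (adjusted p = 0.0633 from limma), which left 4 of the 8. In that fit 3002 of 21543 tested genes were called in either direction. The totals within a genotype rested on the variance shared with the other groups. When only the 4 libraries of the comparison were fitted, limma called no member and no other gene in either genotype. At an unadjusted p under 0.05 were 11 members in WT, beside 4423 of 21543 tested genes, and 9 in GATA2-/- cells, beside 5040. These counts include members that reached a TPM of 1 in HEs alone, so nothing is read from them. With only the 8 HE and HPC libraries, HOXB3 and HOXB5 to HOXB9 were called lower over both genotypes. In that fit 3950 of 21543 tested genes were called in either direction. In some fits without a single library most calls among the 8 within a genotype were lost, and fewer of all tested genes were called. Each such fit leaves 1 library in a group, so its counts are not given. With a pseudocount of 0.1, HOXB5, HOXB6 and HOXB9 were called in WT cells, beside 1889 of 21543 tested genes called in either direction. The same 3 genes were called in GATA2-/- cells, beside 2505.

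Other cell markers moved with these results. The 6 endothelial markers all fell from HEs to HPCs. Their summed TPM was 2793 and 2730 in WT HEs, 3623 and 3212 in GATA2-/- HEs, 735.0 and 468.9 in WT HPCs and 812.4 and 619.8 in GATA2-/- HPCs, with KDR or CD34 the most abundant in HEs and ESAM or CD34 in HPCs. None of the 6 was at 0 in any HE or HPC library. The share of the HE mean found in HPCs was 17.0% for CDH5, 17.9% for KDR, 31.6% for TEK, 28.3% for ESAM, 9.3% for EMCN and 22.4% for CD34, which spans much the same range as that of HOXB5 to HOXB9. The 9 mesenchymal markers had a summed TPM of 682.3 and 522.7 in WT HEs, 583.9 and 371.7 in GATA2-/- HEs, 207.6 and 85.52 in WT HPCs and 180.4 and 106.8 in GATA2-/- HPCs. Of 8 tested, 3 fell and 1 rose from HEs to HPCs, beside 11.9% and 8.52% of all tested genes. COL1A2 was the most abundant of them in HEs, LUM had a TPM of 4.65 to 22.93 in HEs, and PRRX1 was at or below 1.69 in every library. Of the 5 hematopoietic markers, 4 rose from HEs to HPCs, beside 8.52% of all tested genes. Their summed TPM was 49.52 to 159.0 in HEs and 518.0 to 669.6 in HPCs. The neural markers were carried by NES, with SOX1 at 0 in all HE and HPC libraries. Their summed TPM was 83.29 to 165.5 in HEs and 12.4 to 27.98 in HPCs. The HPC mean of NES was 16.8% of its HE mean, so it also fell with the HOX genes. The endodermal list did not exceed 4.6 in HEs or 32.22 in HPCs, and the cardiac list did not exceed 24.07 in HEs or 6.46 in HPCs. The part of other cells in the HOX results was not tested.

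The 2 replicates of each HE and HPC group also differed from each other. Replicate 1 had the higher summed HOX TPM and the higher endothelial and mesenchymal sums, given above, in HEs and HPCs of both genotypes. In HPCs the HOX sums were 146.6 against 95.91 in WT and 142.3 against 90.25 in GATA2-/- cells. HOXB8 was at 8.79 and 10.2 in the replicate 1 libraries and 2.52 and 1.23 in the replicate 2 libraries. Haemoglobin genes made up 0.461% and 0.709% of the TPM in replicate 1 of WT and GATA2-/- HPCs and 1.40% and 1.58% in replicate 2. In the column headings, the replicate 2 libraries of HEs and HPCs share a number that the replicate 1 libraries lack, and its meaning is not stated. Within replicate 1 the HPC minus HE difference in log2(TPM + 1) was -2.36 for HOXB8 in WT and -1.90 in GATA2-/- cells, and within replicate 2 it was -3.58 and -3.70. For HOXB9 the same differences were -1.41 and -1.69 within replicate 1 and -2.12 and -2.19 within replicate 2. For HOXB4 they were 0.35 and -0.18, and -0.42 and -0.05. HOXB2, HOXB3 and HOXB5 to HOXB9 were lower in HPCs within both replicates of both genotypes. Replicate numbers did not pair HEs with HPCs, since their replicate differences correlated at 0.032 in WT and 0.017 in GATA2-/- cells. Without that matching the stages of HOXB2 overlapped.

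The genotype comparison asked whether loss of GATA2 changed the HOX genes. No member was called between GATA2-/- and WT cells. In HEs 0 members passed, beside 0.0186% of all tested genes (limma, adjusted), and 0 had an unadjusted p under 0.05, beside 4.85% of all tested genes. In HPCs 0 passed, beside 0.0603%, and 0 had an unadjusted p under 0.05, beside 8.94%. Over both stages 0 passed, beside 0.0232%, with 0 at an unadjusted p under 0.05, beside 8.04%. The difference of the genotype effect between stages was also called for 0 members, beside 0% of all tested genes, with 0 members at an unadjusted p under 0.05, beside 5.95%. Without the filter the count at an unadjusted p under 0.05 was 2 in HEs, beside 1378 of 33200 genes. It was 0 in HPCs, beside 2339, and 1 over both stages, beside 2151. Such counts also rose when some single libraries were left out, which is taken up under how the results depend on the processing. In HPCs 6 of the 15 tested members (HOXA5, HOXA9, HOXA11, HOXC4, HOXC6 and HOXC10) were at 0 in all 4 libraries and could not differ there, so the HPC counts bear on 9 members. Mitochondrial genes made up 15.14% and 14.75% of the TPM in GATA2-/- HPCs and 6.29% to 9.61% in every other library, and the part of this in the genotype comparisons of HPCs was not tested beyond the member counts, which stayed at 0 after rescaling without these and the haemoglobin genes. The median log2 difference of the 15 in HEs was -0.12, against -0.01 over all tested genes.

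With 2 libraries per group these comparisons left room for sizeable differences. For HOXB4 the log2 difference between GATA2-/- and WT was 0.05 in HEs (95% interval from limma -0.65 to 0.76) and -0.02 in HPCs (-0.73 to 0.68). For HOXB8 the HE interval was -2.03 to 1.22 and the HPC interval -1.86 to 1.39. HOXA9 was at 12 and 6.64 in WT HEs and 5.22 and 5.3 in GATA2-/- HEs, which did not overlap, with a log2 difference of -0.67 (SE 0.37, interval -1.50 to 0.16, adjusted p = 1 from limma). HOXA10, HOXB7 and HOXB8 were likewise lower in both GATA2-/- HE libraries than in either WT library. These were 4 of the 15 tested members, beside 30.3% of all tested genes whose genotypes did not overlap in HEs. In HPCs the genotypes overlapped for all 9 members above 0 in at least 1 HPC library, beside 33.9% of the tested genes above 0 there, or 32.6% of all tested genes, whose genotypes did not overlap.

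**Figure D4:**
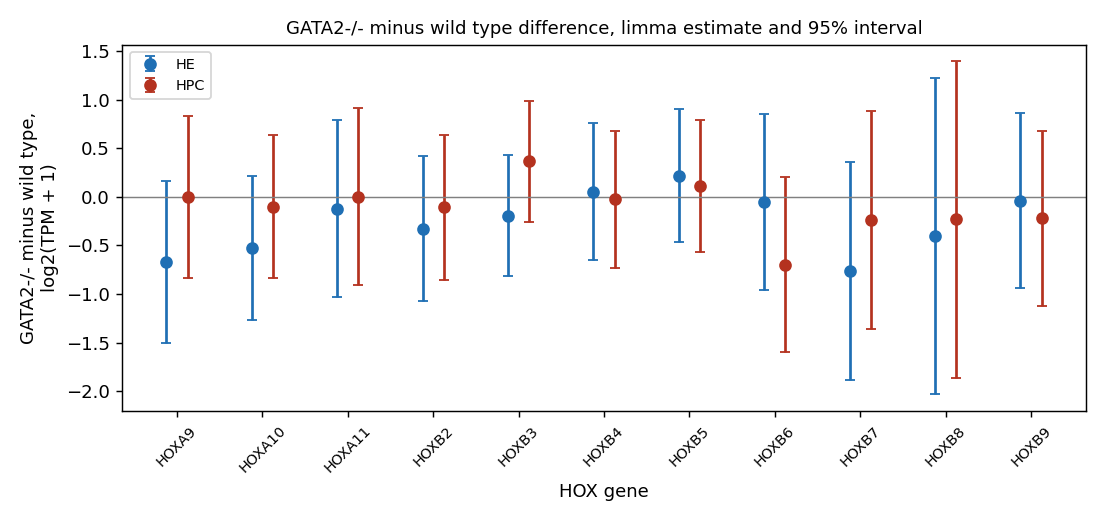
GATA2-/- minus WT difference in log2(TPM + 1) for HOXA9, HOXA10, HOXA11 and HOXB2 to HOXB9 in HEs and HPCs, as the limma estimate with its 95% interval. Every plotted interval includes 0, for example those of HOXB4 (-0.65 to 0.76) and HOXB8 (-2.03 to 1.22) in HEs, while HOXA9 and HOXA11 were at 0 in every HPC library and could show no difference there.

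The TALE partners of the HOX proteins moved in both directions. Of 11 TALE genes, 10 were tested, and between HPCs and HEs over both genotypes 2 rose and 2 fell, beside 8.52% of all tested genes called higher and 11.9% called lower, with a median log2 difference of 0.03 against 0.01 over all tested genes. MEIS1 was at 0 and 0.07 in hESCs, 29.49 to 35.31 in HEs and 53.75 to 62.71 in HPCs, and rose between the latter by 0.85 on the log2 scale (SE 0.13, adjusted p = 0.00184 from limma). TGIF1, which encodes a TALE repressor, fell by 1.35 (SE 0.17), and PBX3 fell by 0.73 (SE 0.16). In the genotype comparisons 0 TALE genes were called by limma in HEs or HPCs, with 2 at an unadjusted p under 0.05 in each, beside 4.85% of all tested genes in HEs and 8.94% in HPCs. MEIS2, named here after its values had been seen, was at 41.04 and 31.59 in WT HEs and 14.1 and 15.35 in GATA2-/- HEs, a log2 difference of -1.24 (SE 0.27) that did not pass (adjusted p = 0.459 from limma).

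Genes that act upstream of the HOX clusters were taken as 2 lists. CDX factors and trithorax proteins act on HOX clusters, and of 10 such genes 7 were tested and 2 rose between HEs and HPCs: MLL (log2 difference 0.82, SE 0.18) and PSIP1 (0.35, SE 0.10), beside 8.52% of all tested genes called higher. MLL was at 15.88 and 14.03 in WT HEs, 14.49 and 8.77 in GATA2-/- HEs, 19.31 and 16.38 in WT HPCs and 32.51 and 30.26 in GATA2-/- HPCs. Its rise passed within GATA2-/- cells (1.40, SE 0.25, adjusted p = 0.0081 from limma) and not within WT cells (0.24, SE 0.25, adjusted p = 0.656), and the difference between genotypes did not pass (1.16, SE 0.36, adjusted p = 0.685). The part of the higher mitochondrial share of GATA2-/- HPCs in these values was not tested. PSIP1 passed in neither genotype alone. The median of the 7 was 0.35 against 0.01 over all tested genes. The CDX genes themselves were low, with CDX2 at 0.21 to 1.61 in HEs and at 0 in HPCs, and CDX4 at 0.95 and 1.61 in hESCs and at 0 elsewhere. Retinoic acid switches on HOX genes in development, and of 18 genes of its synthesis, transport, breakdown and receptors 14 were tested. Between HEs and HPCs 1 rose and 7 fell, beside 8.52% and 11.9% of all tested genes, with a median log2 difference of -0.67 against 0.01 over all tested genes. ALDH1A2, which makes retinoic acid in the embryo, was at 11.43 to 17.46 in HEs and at 0 in both WT HPC libraries and 2.03 and 1.16 in GATA2-/- HPCs, a log2 difference of -3.21 (SE 0.36). CRABP2, a carrier of retinoic acid, fell by 2.93 (SE 0.29). ALDH1A1, another retinaldehyde dehydrogenase, moved the other way and rose by 3.48 (SE 0.37). Its TPM was 40.77 and 40.76 in WT HPCs and 13.62 and 6.37 in GATA2-/- HPCs. That genotype difference, singled out after its values had been seen, did not pass (log2 difference -2.01, SE 0.53, adjusted p = 0.294 from limma).

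Of 25 noncoding RNAs of the clusters, 13 were above 0 in at least 1 library and 12 were at 0 throughout. Of the 13, 7 were tested. HOXB-AS3, which overlaps HOXB3, HOXB5 and HOXB6 on the other strand, was at 29.14 and 26.26 in WT HEs, 27.19 and 24.84 in GATA2-/- HEs, 12.39 and 1.87 in WT HPCs and 5.77 and 1.34 in GATA2-/- HPCs. It fell by 2.49 on the log2 scale (SE 0.49, adjusted p = 0.00733 from limma), and its HPC replicates differed in the same direction as those of HOXB8. HOXA11-AS (log2 difference -1.62) and HOXD-AS1 (-0.91) were also called lower but reached a TPM of 1 in HEs only, so their differences are descriptions. These 3 of the 7 stood beside 11.9% of all tested genes called lower. Within WT cells 1 was called lower, beside 6.59%, and within GATA2-/- cells 4 were, beside 7.24%. The difference between genotypes was called for 0 of them. No noncoding RNA was called higher in HPCs than in HEs. HOTAIR and HOTTIP were at 0 in all 10 libraries.

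Of 17 measured genes that flank the clusters, 15 were tested, and between HEs and HPCs 2 fell and 0 rose, beside 11.9% of all tested genes called lower and 8.52% called higher. Their median log2 difference was -0.29, against 0.01 over all tested genes, and was not tested against that of the HOX genes. SKAP1, which lies beside the HOXB cluster, was at 3.68 to 8.09 in HEs and 0 to 2.55 in HPCs and fell by 1.73 (SE 0.28, adjusted p = 0.00244 from limma). EVX1, beside the HOXA cluster, was the other one called (log2 difference -0.96), and it reached a TPM of 1 in HEs only, with 2.13 at most. CALCOCO2, on the other side of HOXB, had an HPC mean of 80.5% of the HE mean.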

How the data were processed

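RNA-Seq libraries of hESCs, HEs and HPCs were analysed. The authors made them with a TruSeq RNA kit, sequenced single-end reads on a MiSeq, trimmed them with Trimmomatic and mapped them to hg19 with Bowtie. The submitters' processing notes also name RSEM and mm10, without their role, and OP9 is a mouse line. The part of mouse reads was not tested. The deposited values are TPM for 56266 Ensembl genes. The study's Cuffdiff test needs alignments and was not repeated.

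From the deposited TPM, log2(TPM + 1) of all 10 libraries in 5 groups was fitted with limma 3.58.1 in R 4.3.3 (eBayes with trend). Genes that reached a TPM of 1 in 2 or more libraries entered the test, with a threshold of 0.05 on the adjusted p. The fit was tested on simulated data, where it found most but not all of the changes put in, and the pass mark of that check was lowered after its first run. Alternatives were a pseudocount of 0.1, no filter, only the compared libraries, quantile normalization, TPM rescaled without mitochondrial and haemoglobin genes, no trend, a replicate block and each library left out. Pair ratios were tested in Python 3.11.15 with scipy 1.17.1. Positions came from GENCODE v44 lifted to GRCh37. HOXB7 was placed by symbol.

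Members with a mean TPM of at least 5 in a group were described in every library, as were members called in a genotype comparison. Up to 10 called members per direction could be named in a comparison, and up to 4 called genes per context list, those with the largest change, except that some genes are not reported here. The members and lists were chosen with earlier results of these data known.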

Additional observations from a re-analysis of the deposited data

How the results depend on the processing

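Calls within a genotype depended on the fit. With only the 4 libraries of the comparison, the HPC against HE comparison called 0 members in WT and 0 in GATA2-/- cells, where the fit has fewer samples to estimate the spread. Some fits without 1 library called fewer members within a genotype, and fewer of all tested genes. A library left alone in its group was assumed to vary like the other groups, so counts of calls from these fits are not given. Among HOXB2 to HOXB9 alone, a count chosen after seeing the data, 6 were lower in WT, beside 6.59% of all tested genes. In GATA2-/- cells 5 were, beside 7.24%, and over both genotypes 6 were, beside 11.9%. With only the 4 libraries these were 0 within WT and 0 within GATA2-/- cells, as for all tested genes. A pseudocount of 0.1 gave 3 in WT and 3 in GATA2-/- cells, beside 1889 and 2505 of 21543 tested genes called in either direction. In GATA2-/- cells no filter gave 3, beside 2204 of 33200, and no trend gave 3, beside 2449 of 21543. Fits without 1 library also gave fewer in some cases. Members at an unadjusted p under 0.05 between genotypes, 0 as reported, were 2 in HEs with no filter or with no trend. They stood beside 1378 of 33200 genes with no filter and 1152 of 21543 with no trend. With no filter 1 member was under 0.05 over both stages, beside 2151 of 33200 genes. For the difference between stages it was also 1, beside 1653. Some fits without 1 library, which leave 1 library in a group, also gave more than 0. The cause of these shifts was not tested. Of the HOXB pair ratios, 17 of 28 passed, also with a pseudocount of 0.1, and 0 of the 7 neighbouring pairs. These 2 alternatives were chosen after seeing the data. With 1 library left out the smallest exact p for a pair would be 0.0571, so none could pass. The other totals of called members were within 1.5 times of those reported under every alternative listed, and none of the 37 differences of single genes was reversed in 629 alternative values, of which 91 no longer passed.

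Replicate numbers did not pair the samples throughout. The correlation of replicate differences across 21543 genes was 0.123 between WT and GATA2-/- HEs, 0.055 between the HPCs and -0.014 to 0.032 between other groups. With a replicate block, 12 members were called between HPCs and HEs over both genotypes, beside 4688 of 21543 tested genes. In WT 9 were called, beside 2296, and in GATA2-/- cells 8, beside 3002. Against hESCs 14 were called in HEs, beside 6803, and 8 in HPCs, beside 6924. In the genotype comparisons 0 members were called, beside 2 tested genes in HEs and 3 in HPCs. The totals between stages include members that entered the test through the group where they were high, so nothing is read from them. Rescaling without mitochondrial and haemoglobin genes moved the median difference of all genes between GATA2-/- HPCs and HEs to 0.15. There 9 members were still lower, beside 2958 of 21980 tested genes called in either direction. TPM holds no depth, so the effect of depth on these calls is unknown.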
